A study of Mus musculus with 39 samples.

Results

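The genes described here are Nfe2l2, which encodes the transcription factor NRF2, and 9 genes known as its targets: Gclc, Gclm, Slc7a11, Gsr, Txnrd1, Srxn1, Prdx1, Hmox1 and Nqo1. They were chosen by name, not by their values, though with earlier results of these data known. All 10 were found among the 43430 genes of the deposited count table. RNA had been sequenced in 39 libraries from C57BL/6J mice, in 8 groups set by cell type, age and treatment. One cell type was lung monocytes from naive mice (20 libraries), and the other was alveolar macrophages derived from monocytes, low in Siglec F and sorted after bleomycin, which damages the lung and is used to model fibrosis (19 libraries). The treatments were saline and ISRIB, an inhibitor of the integrated stress response, through which stressed cells lower protein synthesis. The macrophage groups were young saline, young ISRIB, old saline and old ISRIB, and the monocyte groups were the same 4. Young ISRIB macrophages had 4 libraries and each other group had 5. Young mice were 8 to 12 weeks old by the sample labels but 3 to 5 months by the series text, and old mice were over 18 months by the labels and 18 to 24 months by the series text. ISRIB was injected daily starting on day 7 after bleomycin and cells were taken on day 21, and no timing is named for naive mice. All macrophages came from bleomycin mice and all monocytes from naive mice, so the effects of cell type and of bleomycin cannot be told apart.

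NRF2 is the main activator of antioxidant genes. In unstressed cells KEAP1, an adaptor of the CUL3 ubiquitin ligase, marks NRF2 for destruction, and oxidants or electrophiles that modify KEAP1 let NRF2 accumulate. NRF2 then pairs with a small MAF protein and binds antioxidant response elements, which BACH1 can occupy as a repressor. Much of this control acts on the NRF2 protein, which was not measured here. In macrophages the targets are known for handling heme, iron and the oxidants that the cells themselves release.

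To show where such an element could lie, the core motif, spelled TGACNNNGC or TGAGNNNGC on either strand, was searched in RefSeq promoter windows of assembly GRCm38.p6, which run from 250 bases before to 50 bases after each start. Of the 10 genes, 7 had a window, and Hmox1, Gclc and Gsr had none. The motif was present in the windows of 6 of these 7 genes, beside 30.76% of the 27025 genes with a window. Nqo1 had no match in its window, and the match of Nfe2l2 lay in an exon of a neighbouring gene. The matches upstream of the start in the other 5 genes are shown, each with 20 bases on either side and the motif in capitals. Matches after the start, in exons of Srxn1 and Prdx1, are not shown. These 5 targets rose in macrophages in the comparison that follows, but so did Nqo1, without a match, and Hmox1 and Gclc, without a window. A link between motif and rise was not tested. Each match shown runs 5′ to 3′ on the gene's own strand. A match is a description of the letters, not a measured binding site.
Srxn1, 45 bases before the start, chr2:152105459-152105507, + strand, between genes: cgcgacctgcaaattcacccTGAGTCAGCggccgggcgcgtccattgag
Srxn1, 158 bases before the start, chr2:152105346-152105394, + strand, between genes: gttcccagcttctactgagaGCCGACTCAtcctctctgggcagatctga
Prdx1, 133 bases before the start, chr4:116685446-116685494, + strand, between genes: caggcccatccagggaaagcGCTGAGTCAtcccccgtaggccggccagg
Slc7a11, 97 bases before the start, chr3:50443682-50443730, - strand, between genes: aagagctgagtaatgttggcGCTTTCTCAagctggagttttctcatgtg
Gclm, 134 bases before the start, chr3:122245403-122245451, + strand, between genes: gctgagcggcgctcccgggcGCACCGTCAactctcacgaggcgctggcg
Txnrd1, 92 bases before 1 of its 3 starts, chr10:82859094-82859142, + strand, in an intron of Txnrd1: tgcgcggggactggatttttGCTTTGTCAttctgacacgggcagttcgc
Of the matches shown, the Srxn1 match 45 bases before the start and the Prdx1 match also contain an AP-1 site. This is TGACTCA or its reverse complement TGAGTCA, the site of FOS and JUN. The other 4 matches shown do not contain it. The windows at the other two Txnrd1 starts held no match.

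Each library held between 4595331 and 16056708 counts (median 8628240). Siglecf, the sorting marker of the macrophages, stood at 46.8 to 156.5 CPM (a gene's counts scaled to a common library size) in macrophage libraries and at no more than 1.57 in monocyte libraries, while Ly6c2, a monocyte marker, stood at 277.9 to 697.7 in monocytes and at no more than 7.01 in macrophages. Levels below are CPM scaled by TMM factors over the 39 libraries, a correction for differences in library make-up. A gene was called changed when its adjusted p was under 0.05 in edgeR's quasi-likelihood test, with Benjamini-Hochberg adjustment over all genes tested. The labels do not say whether libraries are separate mice, so p-values measure the spread between these samples. In such bulk samples, fewer cells of a type and less RNA per cell cannot be told apart.

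Comparing macrophages with monocytes, 8 of the 10 genes rose, 1 fell and Nfe2l2 itself was not called. Averaged over ages and treatments, Nqo1, Slc7a11, Srxn1, Gclm, Prdx1 and Txnrd1 were higher in macrophages by 1.36 to 4.14 on the log2 scale, Hmox1 by 0.92 and Gclc by 0.27, while Gsr fell by 1.97. The median of the 10 log2 differences was 1.75, beside -0.00 over all 13587 genes tested. The 9 calls are to be read against a background in which 79.2% of all genes tested were called, 39.9% as higher and 39.2% as lower. In young saline mice alone the same 9 were called, beside 60.0% of all genes, and in old saline mice again the same 9 in the same directions, beside 57.0%. For 9 of the 10 genes the 5 macrophage and the 5 monocyte libraries of saline mice did not overlap at either age, which held for 40.0% of all genes in young and 43.1% in old mice. Over all 39 libraries Hmox1, Gclm, Txnrd1 and Prdx1 stood higher in every macrophage library than in any monocyte library and Gsr lower, so 5 of 10, beside 21.0% of all genes.

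**Figure D1:**
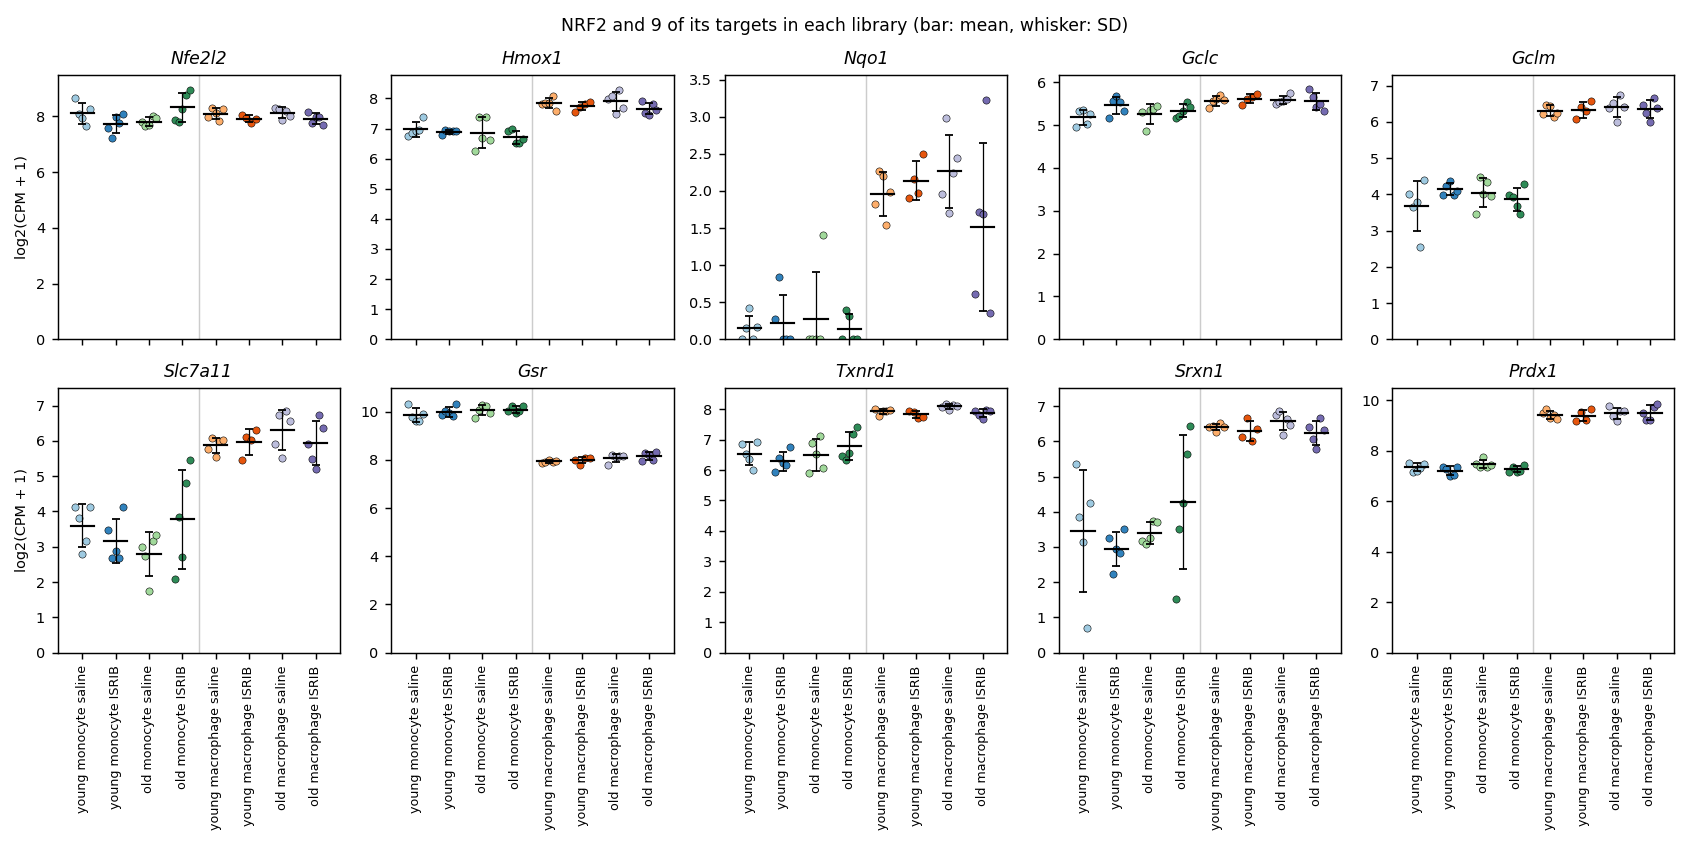
Level of each of the 10 genes in each of the 39 libraries, on the log2(CPM + 1) scale (vertical axes start at 0), by group; points are libraries, bars are group means and whiskers the SD. The means of the macrophage groups (right of the grey line) lie above those of all monocyte groups for 8 genes and below them for Gsr, and Nfe2l2 overlaps.

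Nfe2l2 (ENSMUSG00000015839, GRCm38 chromosome 2, 75675513 to 75704641) was read at close to the same level in both cell types. Young saline monocytes gave 408, 271, 244, 201 and 305 CPM, and young saline macrophages 252, 317.6, 281.5, 226 and 307. These 2 groups overlap, and the highest library is a monocyte library. In old saline mice monocytes stood at 200.3 to 260.1 CPM and macrophages at 232 to 318, which also overlap. The log2 difference, macrophages minus monocytes, was -0.05 ± 0.18 (SE) in young saline mice and 0.32 ± 0.18 in old saline mice (edgeR, Benjamini-Hochberg adjusted p = 0.835 and 0.117). The second value was called when only the old saline groups were fitted (adjusted p = 0.0203). Over both ages and treatments the log2 difference was -0.01 ± 0.09 (adjusted p = 0.928).

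The genes that act on NRF2 did not share a direction. Keap1, its inhibitor, had a mean of 53.4 CPM in young saline monocytes and 52.6 in young saline macrophages, and its log2 difference between these groups was -0.02 ± 0.15 (SE; edgeR adjusted p = 0.900). Averaged over ages and treatments, Cul3, the scaffold of the ligase that ubiquitinates NRF2, fell by 0.59 ± 0.04 on the log2 scale (adjusted p = 1.62e-15). Bach1, the repressor that competes for the same elements, fell by 1.40 ± 0.13 (SE) in young saline mice (edgeR adjusted p = 3.71e-12), from a mean of 504 ± 137 CPM (SD, n = 5) in monocytes to 191 ± 24 in macrophages. In the average over ages and treatments, in the class of 11 regulators 4 rose and 4 fell. Of all genes tested 39.9% were called higher and 39.2% lower in that average. Maff, a small MAF partner, rose by 1.60, and Sqstm1, which encodes the autophagy receptor p62 that can sequester KEAP1, rose by 1.08.

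The genes of glutathione supply moved unequally. Slc7a11 (ENSMUSG00000027737, chromosome 3, 49892526 to 50443614) encodes the cystine importer that brings in the limiting precursor. Its levels were 16.3, 13.1, 5.92, 7.96 and 16.4 CPM in young saline monocytes and 53.1, 66.3, 46.0, 62.5 and 63.7 in young saline macrophages. In old saline mice they were 6.90, 5.70, 2.33, 7.92 and 9.04 in monocytes and 59.4, 105.1, 45.0, 114.9 and 93.1 in macrophages. Every macrophage library stood above every monocyte library at both ages. The log2 difference was 2.27 ± 0.42 (SE) in young and 3.71 ± 0.45 in old mice (edgeR adjusted p = 1.43e-05 and 3.72e-09).

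Gclm (ENSMUSG00000028124, chromosome 3, 122245557 to 122270732) and Gclc (ENSMUSG00000032350, chromosome 9, 77754535 to 77794485) encode the modifier and the catalytic subunit of glutamate-cysteine ligase, which makes the first step of glutathione synthesis. Gclm stood at 15.1, 11.5, 12.9, 4.90 and 20.1 CPM in young saline monocytes and at 74.0, 88.1, 85.8, 69.3 and 75.2 in young saline macrophages. The lowest of these macrophage libraries is over the highest of the monocyte libraries, and the log2 difference was 2.58 ± 0.21 (edgeR adjusted p = 1.20e-13). In old saline mice it was 2.40 ± 0.21 (adjusted p = 4.95e-13), with monocytes at 9.97 to 21.3 CPM and macrophages at 62.3 to 106.6.

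Gclc differed far less. Its levels were 30.3, 38.97, 39.6, 31.7 and 37.02 CPM in young saline monocytes and 40.95, 46.4, 48.2, 51.2 and 46.8 in young saline macrophages. The groups did not overlap, but their nearest libraries are 39.6 and 40.95, and the log2 difference was 0.39 ± 0.12 (edgeR adjusted p = 0.00365). In old saline mice it was 0.32 ± 0.12 (adjusted p = 0.0169), and this call was lost without replicate 2 of the old saline monocytes, the lowest library at 28.1 CPM (0.23, adjusted p = 0.0887).

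The balance of the subunit transcripts differed between the cells. Per kilobase of exon, the ratio of Gclm to Gclc had a mean of 0.218 ± 0.095 (SD, n = 5) in young saline monocytes and 0.266 ± 0.115 in old saline monocytes. It was 1.01 ± 0.13 in young saline macrophages and 1.08 ± 0.21 in old saline macrophages. Over the 8 groups the highest monocyte library had a ratio of 0.453 and the lowest macrophage library 0.81, so the cell types did not overlap.

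Gsr (ENSMUSG00000031584, chromosome 8, 33652523 to 33698163), whose product reduces oxidised glutathione with NADPH, went the other way. Young saline monocytes gave 1290, 890.1, 785, 772 and 961 CPM, and young saline macrophages 235, 239, 255, 239 and 250.4. Across all groups the lowest of the 20 monocyte libraries stood at 772 CPM and the highest of the 19 macrophage libraries at 323. The difference was 3.91-fold lower in macrophages over both ages and treatments, a fall by 1.97 ± 0.06 on the log2 scale (edgeR adjusted p = 1.15e-27). The summed level of 10 neutrophil marker genes also stood higher in monocytes, at 440.9 to 825.2 CPM, than in macrophages, at 80.4 to 161.1. Every one of these 10 markers had counts in the monocyte groups, while Ngp and Camp, proteins of neutrophil granules, were at 0 in both ISRIB macrophage groups. Ngp was also at 0 in old saline macrophages, but young saline macrophages had counts of all 10 markers. Their part in the Gsr result was not tested.

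In the thioredoxin arm all 3 genes rose. Txnrd1 (ENSMUSG00000020250, chromosome 10, 82833951 to 82897712) encodes the cytosolic thioredoxin reductase. It stood at 114.6, 91.5, 80.8, 63.7 and 120.2 CPM in young saline monocytes and at 256.4, 218.7, 244.5, 246.1 and 251.1 in young saline macrophages, with no overlap. The log2 difference was 1.37 ± 0.19 (SE) in young and 1.53 ± 0.19 in old saline mice (edgeR adjusted p = 6.93e-08 and 6.72e-09).

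Prdx1 (ENSMUSG00000028691, chromosome 4, 116685544 to 116700822) encodes a peroxidase that thioredoxin recharges. Its levels were 180.4, 141.6, 146, 159 and 179 CPM in young saline monocytes and 713, 803, 622, 682 and 610.2 in young saline macrophages. The lowest macrophage library was more than 3 times the highest monocyte library of that comparison. The log2 difference was 2.09 ± 0.13 in young and 2.02 ± 0.13 in old saline mice (edgeR adjusted p = 2.13e-17 and 5.23e-17).

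Srxn1 (ENSMUSG00000032802, chromosome 2, 152105516 to 152111376) encodes sulfiredoxin, which repairs peroxiredoxins that were oxidised too far. Young saline monocytes gave 40.1, 13.4, 7.86, 0.613 and 17.9 CPM, and young saline macrophages 84.3, 85.9, 76.2, 91.1 and 83.7. The monocyte libraries were widely scattered and the macrophage libraries close together. The lowest monocyte value rests on 3 counts in the shallowest library. The log2 difference was 2.36 ± 0.50 in young and 3.30 ± 0.52 in old saline mice (edgeR adjusted p = 8.89e-05 and 8.63e-07).

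Hmox1 (ENSMUSG00000005413, chromosome 8, 75093621 to 75100589) encodes heme oxygenase, which opens heme to biliverdin, carbon monoxide and iron. It stood at 107.8, 113, 119, 123.6 and 164 CPM in young saline monocytes and at 223, 232, 232, 270.4 and 192 in young saline macrophages. In old saline mice monocytes ran from 75.0 to 168 and macrophages from 179 to 308. All macrophage libraries stood above all monocyte libraries. The log2 difference was 0.87 ± 0.16 in young and 0.996 ± 0.160 in old saline mice (edgeR adjusted p = 1.24e-05 and 1.35e-06). The summed level of 7 red blood cell genes, hemoglobins among them, was no more than 4.63 CPM in any library.

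Nqo1 (ENSMUSG00000003849, chromosome 8, 107388225 to 107403206) encodes a quinone reductase and was the scarcest of the 10. In monocytes it had 31 counts in all, and 12 of the 20 libraries had none. In the young saline groups it had 5 counts in monocytes and 134 in macrophages, a ratio of 24.0 per library total (exact 95% interval 10.04 to 75.2, which covers counting error only). In the old saline groups it had 12 and 177, a ratio of 14.5 (8.12 to 28.7). All 12 monocyte counts came from replicate 5, at 1.64 CPM, and the other 4 libraries had none. The edgeR log2 differences were 4.46 ± 1.09 and 3.74 ± 0.98 (adjusted p = 0.00055 and 0.00133).

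**Figure D2:**
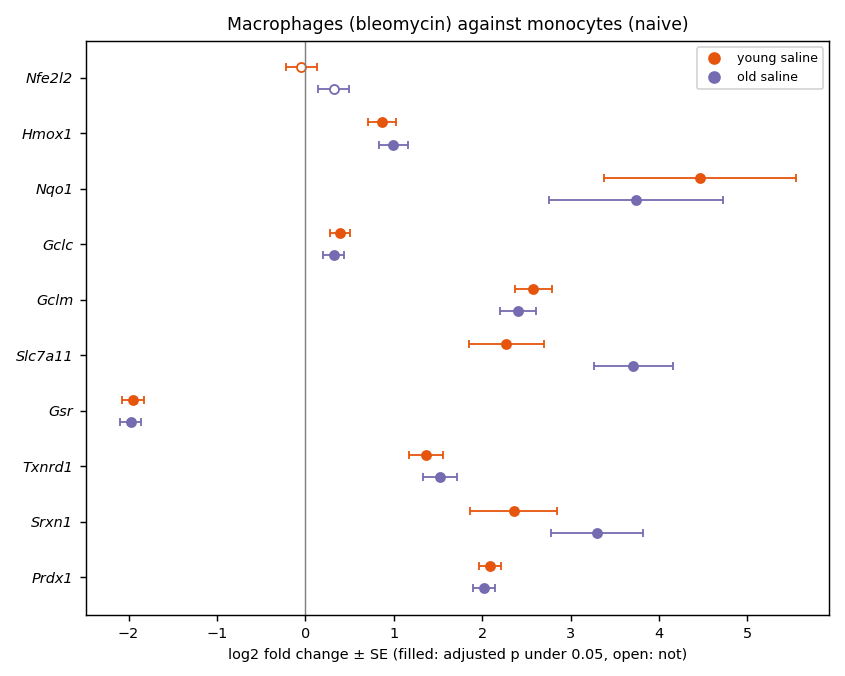
Log2 fold change (horizontal axis) of each gene in macrophages of bleomycin mice against monocytes of naive mice, in young saline and old saline mice; points are edgeR estimates, bars the SE, filled where the adjusted p is under 0.05. Gsr alone lies far left of 0 and Nfe2l2 is open at both ages.

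Levels per kilobase of exon allow the genes to be ranked. In macrophages the mean over 19 libraries was highest for Prdx1 (232 CPM per kb ± 35 SD), followed by Hmox1 (127 ± 20), Gsr (96.2 ± 10.7), Nfe2l2 (69.1 ± 9.4), Txnrd1 (34.5 ± 3.3) and Srxn1 (29.8 ± 5.5). Gclm (12.96 ± 1.93) and Gclc (12.5 ± 1.1) were within their spread of each other, as were Txnrd1 and Srxn1. Slc7a11 (4.86 ± 1.66) and Nqo1 (2.12 ± 1.23) came last, also within their spread. In monocytes Gsr led at 375 ± 57 CPM per kb, ahead of Nfe2l2 (70.3 ± 23.1), Hmox1 (67.1 ± 14.03) and Prdx1 (52.6 ± 6.6), which were within their spread of each other. Below them stood Txnrd1 (13.5 ± 4.3), Gclc (10.4 ± 1.5), Srxn1 (5.82 ± 7.10), Gclm (2.36 ± 0.64), Slc7a11 (0.817 ± 0.680) and Nqo1 (0.122 ± 0.255), with each of these neighbours within the spread of the next except Gclm and Slc7a11. Prdx1 thus held the fourth place in monocytes and the first in macrophages, and Gsr the first and the third.

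The size of the macrophage difference was compared between ages in saline mice by an interaction term. None of the 10 genes was called by edgeR, DESeq2 or limma voom, beside 0.250% of all genes in edgeR, and 1 gene had an unadjusted p under 0.05, beside 10.9% of all genes. This was Slc7a11, whose difference was larger in old mice by 1.44 ± 0.59 on the log2 scale (edgeR adjusted p = 0.338).

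Around these 10, a list of 107 other genes of the pathway was described, of which 97 passed the filter on low counts. Averaged over ages and treatments, 60 rose and 22 fell in macrophages, with a median log2 difference of 0.49, and the 79.2% of all genes called is the background here too. DESeq2 called 81 and limma voom 83. Genes of heme and iron handling rose in all 9 of 9 cases, with a median of 1.87. Fth1, the ferritin heavy chain that stores iron, had a mean of 1349 ± 280 CPM (SD, n = 5) in young saline monocytes and 7609 ± 517 in young saline macrophages, and rose by 2.50 ± 0.15 (SE) on the log2 scale between these groups. Slc40a1, the iron exporter ferroportin, rose by 4.78 ± 0.66 from a mean of 0.63 CPM in young saline monocytes to 18.8 in young saline macrophages.

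Among the genes of quinone and carbonyl detoxification, averaged in the same way, 11 of 17 rose and 3 fell. For this and the classes below, 39.9% of all genes tested were called higher and 39.2% lower. Ephx1, an epoxide hydrolase, rose by 4.86 on the log2 scale. Akr1b8, an aldo-keto reductase, had no count in the 5 young or the 5 old saline monocyte libraries. With a floor of 3 counts for the monocyte group, it was at least 89.7-fold higher in young saline macrophages and at least 177-fold higher in old. The exact lower 95% limits of these ratios, for counting error only, were 72.5 and 144. In the average, Ugt1a6a, a glucuronosyltransferase, fell by 1.90 and Osgin1 by 1.19. In the class of glutathione synthesis and use 16 of 25 rose and 6 fell. For thioredoxins and peroxiredoxins the counts were 7 and 4 of 14, and Prdx6 fell by 1.70 ± 0.15 (SE) in young saline mice, from 202 ± 33 to 62.3 ± 7.4 CPM (SD, n = 5 each). The enzymes of NADPH production gave 6 and 2 of 10, and superoxide dismutases, catalase, metallothioneins and related genes 7 and 3 of 11.

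**Figure D3:**
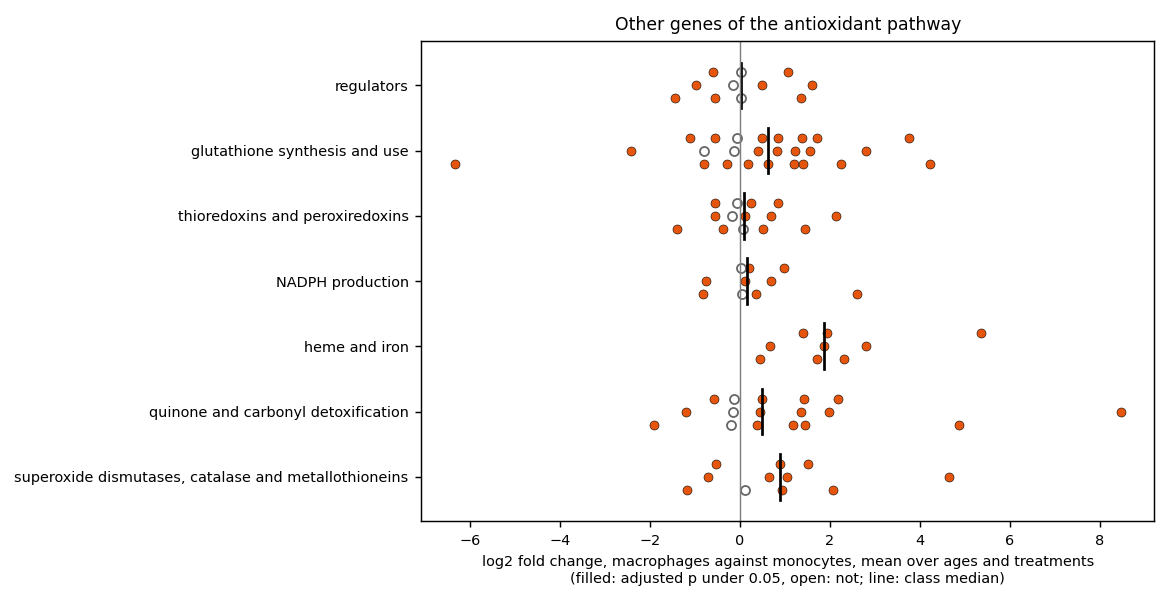
Log2 fold change (horizontal axis) of 97 other pathway genes in macrophages against monocytes, averaged over ages and treatments, by class; each point is a gene, filled where the edgeR adjusted p is under 0.05, and the line is the class median. Heme and iron is the class with every gene right of 0, and the medians of regulators and of thioredoxins lie near 0.

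ISRIB was compared with saline within macrophages, at each age. None of the 10 genes was called in old mice by edgeR, DESeq2 or limma voom, where edgeR called 0% of all 12171 genes. None was called in young mice either, again beside 0%. At an unadjusted p under 0.05 there were 3 of the 10 in old mice, all lower with ISRIB, beside 9.14% of all genes, and 0 of the 10 in young mice, beside 12.4%. Txnrd1 gave 271, 288, 249.9, 279 and 272 CPM in old saline macrophages and 247, 221, 202, 250.5 and 246 with ISRIB. The 4 highest saline libraries stood above all ISRIB libraries and the lowest stood within them, and the log2 difference was -0.22 ± 0.07 (SE; edgeR adjusted p = 0.380). Srxn1 gave 106.7, 114.5, 71.7, 98.5 and 87.4 CPM with saline and 84.2, 66.1, 53.5, 99.5 and 78.5 with ISRIB, which overlap. Its log2 difference was -0.32 ± 0.14 (adjusted p = 0.504). Hmox1 was the remaining gene, at -0.26 ± 0.12 (adjusted p = 0.540), from 179 to 308 CPM with saline and from 175 to 238 with ISRIB. Markers of other cells also moved with ISRIB. The summed level of 12 T and NK cell markers had a median of 71.2 CPM in old saline (31.99 to 200.4) and 168 in old ISRIB macrophages (116 to 245). In young mice it ran from 35.04 to 68.1 CPM with saline and from 42.4 to 134 with ISRIB. The 12 B cell markers had a median of 128 CPM in old saline (28.8 to 421) and 229 in old ISRIB macrophages (166 to 612). Siglecf, the gene of the sorting marker, ran from 51.5 to 119.8 CPM in old saline and from 101 to 156.5 in old ISRIB macrophages, and from 46.8 to 58.8 in young saline and from 60.3 to 82.0 in young ISRIB, with no overlap in young mice. The part of these markers in the differences with ISRIB was not tested.

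Over the 10 genes the median log2 difference with ISRIB was -0.22 in old macrophages, beside 0.00 over all genes tested, and 0.00 in young macrophages. Slc7a11 was at -0.35 ± 0.24 in old and 0.10 ± 0.26 in young macrophages, and Nfe2l2 at -0.22 ± 0.11 and -0.19 ± 0.11. The test of the difference between the ages called none of the 10, beside 0% of all genes, and none had an unadjusted p under 0.05, beside 5.10%. Averaged over ages, none of the 10 was called by any of the 3 tools, beside 0.830% of all genes in edgeR. Txnrd1 (-0.16 ± 0.05, adjusted p = 0.127) and Nfe2l2 (-0.20 ± 0.08, adjusted p = 0.166) had an unadjusted p under 0.05, as did 16.6% of all genes. In the wider list 2 of 93 genes were called in this average. Txnip, the inhibitor of thioredoxin, was higher with ISRIB by 0.38 ± 0.09 (edgeR adjusted p = 0.0391), and Ptgr1, an NADPH-dependent reductase of reactive lipids, was lower by 0.33 (-0.33 ± 0.07, adjusted p = 0.0332). At either age alone 0 of 93 were called by edgeR, with 14 in old and 13 in young mice at an unadjusted p under 0.05, and DESeq2 called 1 in old and 0 in young, limma voom 0 in both.

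Age was compared within macrophages in the same way. None of the 10 genes was called in saline mice by edgeR, DESeq2 or limma voom, beside 1.16% of all genes in edgeR, although all 10 estimates were above 0, with a median log2 difference of 0.14. Those of Nfe2l2, Hmox1 and Gclc changed sign with 1 library left out. None was called in ISRIB mice, beside 0.937%, or in the average of both, beside 4.86%. At an unadjusted p under 0.05 there were 2, 0 and 1 of the 10, beside 12.7%, 12.2% and 17.8% of all genes. Slc7a11 ran from 45.0 to 114.9 CPM in old saline and from 46.0 to 66.3 in young saline macrophages, and its log2 difference, old minus young, was 0.51 ± 0.24 (edgeR adjusted p = 0.381). This was a call with no filter on low counts (adjusted p = 0.0271). Txnrd1 differed by 0.16 ± 0.07 (adjusted p = 0.372), and Gsr by 0.17 ± 0.07 in the average of both treatments (adjusted p = 0.160).

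In the wider list, Maff and Sqstm1 were called in saline mice, both higher in all 5 old than in all 5 young libraries, which held for 1.68% of all genes. Maff rose from 24.0 ± 6.0 to 43.8 ± 11.5 CPM (SD, n = 5 each; log2 0.88 ± 0.20 SE, edgeR adjusted p = 0.0231), and Sqstm1 from 375 ± 23 to 492 ± 31 (0.39 ± 0.08, adjusted p = 0.00972). In ISRIB mice the 1 gene called was Me1, the NADPH-making malic enzyme, which fell outside the rule for named genes and was chosen after its values were seen. It had a mean of 2.26 CPM in old ISRIB macrophages, and the highest of the 4 young ISRIB libraries had 0.296 (edgeR adjusted p = 0.0148). Averaged over treatments 12 of 93 genes were called, 10 higher and 2 lower with age. The largest increases among those of at least 5 CPM were Mgst2 (0.90) and Gstm1 (0.81), which conjugate glutathione, Maff (0.72) and Akr1b8 (0.71), and the decreases were Gpx3, a secreted glutathione peroxidase, by 0.74 and Ucp2 by 0.16. The summed level of 12 B cell marker genes also moved with age in macrophages. It ran from 7.11 to 30.7 CPM in young and from 28.8 to 612 in old libraries. Ccr2, listed as a classical monocyte marker, ran from 245.7 to 452.7 CPM in young saline and from 62.7 to 194.6 in old saline macrophages. Ly6c2 overlapped there. Medians of 12 summed resident alveolar macrophage markers were 6792 CPM in young saline and 9294 in old saline macrophages, with overlap. For 12 markers of monocyte-derived alveolar macrophages they were 26690 and 23120, also with overlap. The part of these markers in the age differences was not tested.

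**Figure D4:**
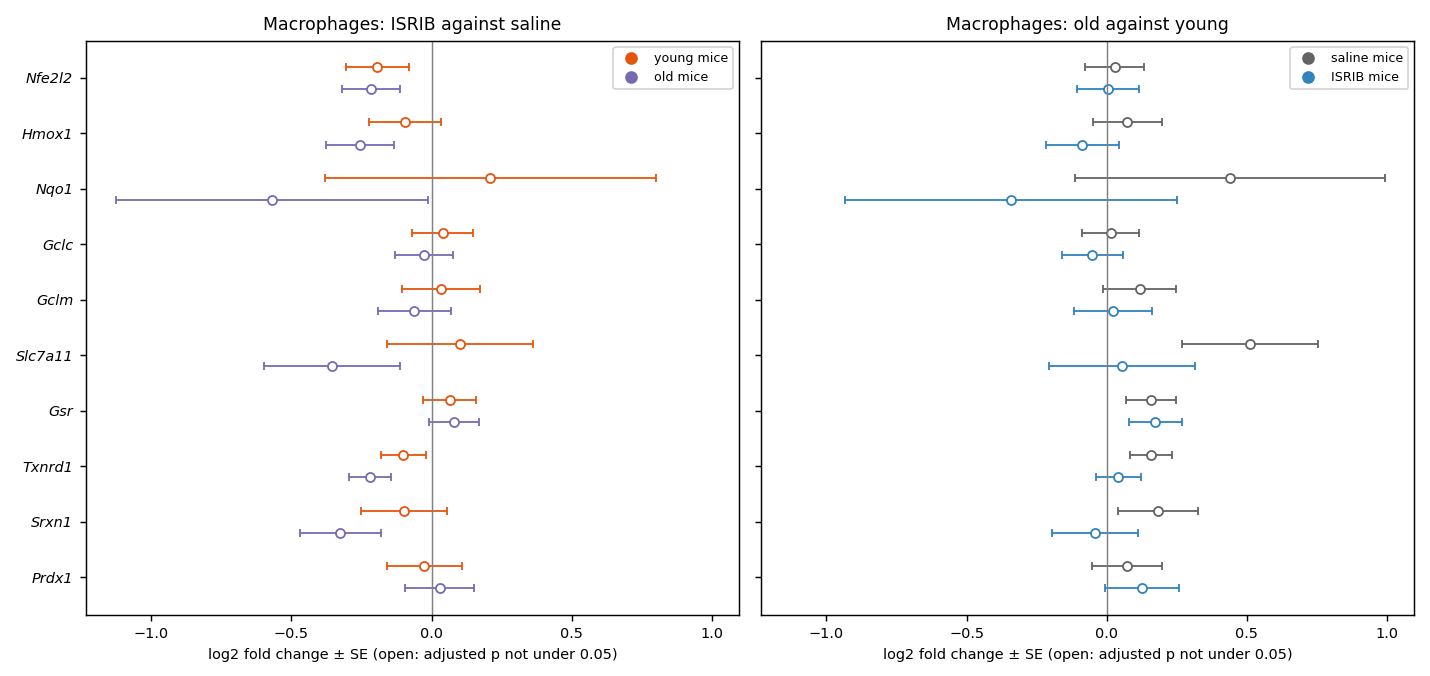
Log2 fold change (horizontal axis) of the 10 genes in macrophages, for ISRIB against saline at each age (left) and for old against young in each treatment (right); points are edgeR estimates and bars the SE. All points are open, as no adjusted p was under 0.05, and with ISRIB in old mice 8 of the 10 estimates lie left of 0, all but Gsr and Prdx1, though Gclc, Gclm and Prdx1 change sign with 1 library left out.

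In monocytes 9 of the 10 genes were tested, since Nqo1 did not pass the filter. None was called for ISRIB in old mice (beside 0% of 12170 genes), for ISRIB in young mice (0%), for age in saline mice (0.0247%) or for age in ISRIB mice (0%). DESeq2 and limma voom called none of them either, and 4, 1, 0 and 4 of the 9 had an unadjusted p under 0.05, beside 7.54%, 6.65%, 8.81% and 6.60% of all genes. In the wider list 0 of 87 genes were called by any of the 3 tools in these 4 comparisons, with 5, 10, 10 and 11 at an unadjusted p under 0.05.

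In old monocytes the differences of Nfe2l2, Slc7a11 and Srxn1 with ISRIB shrank without replicates 4 and 5 of the old ISRIB group, which stood apart. These libraries were left out after their high values were seen, so smaller differences without them follow from that choice. Prdx1, the other gene with an unadjusted p under 0.05, differed by -0.23 with them and -0.27 without them. Nfe2l2 gave 222, 200.3, 204, 260.1 and 244 CPM in old saline monocytes and 231, 221, 310.3, 434 and 499 with ISRIB. Srxn1 gave 8.06, 7.47, 8.55, 12.4 and 12.1 CPM with saline and 1.89, 10.4, 18.1, 48.9 and 85.0 with ISRIB. The ISRIB libraries at 310.3 CPM of Nfe2l2 and at 18.1 CPM of Srxn1 also stood above all old saline libraries. Slc7a11 gave 3.23, 13.5, 5.54, 27.2 and 42.7 CPM with ISRIB. In each of these the last 2 ISRIB libraries were above all 18 other monocyte libraries, whose highest values were 407.5 for Nfe2l2, 40.1 for Srxn1 and 16.4 for Slc7a11. Txnrd1 was also highest there, at 144 and 169.5 CPM against 59.2 to 138 in the others. Hmox1, Gclc, Gclm, Gsr and Prdx1 stood within the range of the other 18 libraries.

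With these 2 libraries the log2 difference of Srxn1 with ISRIB in old monocytes was 1.73 ± 0.67 (SE; edgeR adjusted p = 0.561), and without them it was 0.05. For Slc7a11 it was 1.51 ± 0.52 (adjusted p = 0.509) and 0.22 without them, and for Nfe2l2 0.57 ± 0.21 (adjusted p = 0.534) and 0.16. Other genes, chosen after their values were seen, set the same libraries apart. Fos, an AP-1 subunit induced within minutes of a stimulus, stood at 1862 and 1139 CPM against 3112 to 5196 in the other 18. Jun stood at 245 and 132 against 366 to 816, Egr1 at 99.2 and 81.3 against 188 to 530.0, and Il1b, an inflammatory cytokine, at 1370 and 1195 against 109 to 1008. Replicate 1 of the young saline monocytes, the library with the next highest Nfe2l2 and Srxn1, had the lowest Fos and Egr1 of those 18. The part of these genes in the Nfe2l2, Srxn1 and Slc7a11 differences was not tested.

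**Figure D5:**
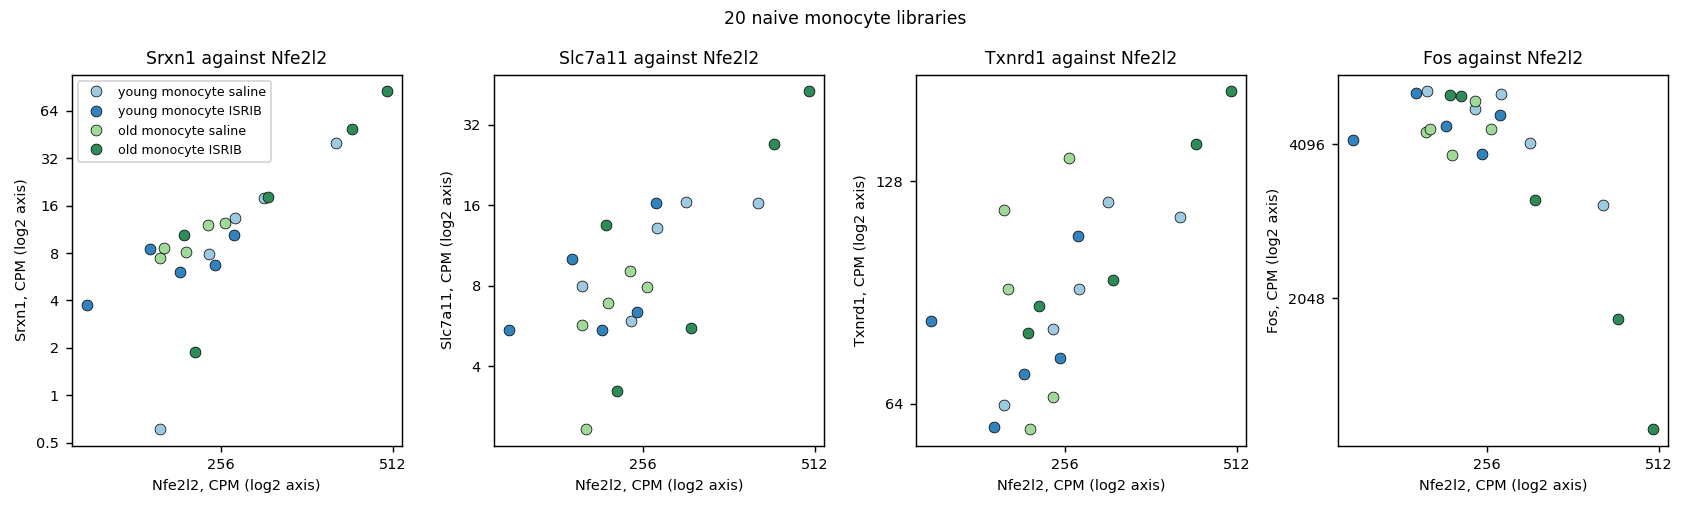
Srxn1, Slc7a11, Txnrd1 and Fos (vertical axes, CPM on a log2 axis) against Nfe2l2 (horizontal axis, CPM on a log2 axis) in the 20 monocyte libraries; each point is a library, coloured by group. The old ISRIB libraries at 434 and 499 CPM of Nfe2l2 have the highest Srxn1, Slc7a11 and Txnrd1 and the lowest Fos.

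The genes were then compared with each other across libraries, on log2 CPM, by Pearson's r and Spearman's rho with a permutation test adjusted by Benjamini-Hochberg over the pairs of each cell type. In the 20 monocyte libraries 7 of 36 pairs were called by r. The share of pairs called among all genes was not computed, so this count has no background to be read against. Nfe2l2 and Srxn1 were closest, at r = 0.849 (adjusted permutation p = 0.00072) and rho = 0.806 (0.00288), with r = 0.72 without the 2 libraries farthest on Nfe2l2, which are the 2 old ISRIB libraries above, and r = 0.863 within groups. For Nfe2l2 and Slc7a11 r was 0.745 (adjusted permutation p = 0.00276) and rho 0.606 (0.039), and r fell to 0.504 without those libraries. For Nfe2l2 and Txnrd1 r was 0.70 (adjusted permutation p = 0.00441) and rho 0.653 (0.024), with r at 0.479 without them. The other 4 pairs had r from 0.556 to 0.733. Libraries high in Nfe2l2 were thus high in Srxn1 with or without these 2 old ISRIB libraries. The r of Nfe2l2 with Slc7a11 and with Txnrd1 fell more without them. Replicate 1 of the young saline monocytes, next highest in Nfe2l2 and Srxn1, was kept, and r without it as well was not computed.

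In the 19 macrophage libraries 10 of 45 pairs were called by r, again without a share over all genes, and none of them held Nfe2l2. Gclm and Slc7a11 were closest, at r = 0.811 (adjusted permutation p = 0.00225) and rho = 0.767 (0.0081), with r = 0.747 without the 2 libraries farthest on Gclm and 0.818 within groups. Txnrd1 and Srxn1 gave r = 0.765 (adjusted permutation p = 0.00292) and rho = 0.67 (0.0221), with 0.612 and 0.71 in the same checks. Slc7a11 and Srxn1 gave r = 0.724 (adjusted permutation p = 0.0072) and rho = 0.651 (0.0221), with 0.63 and 0.716. The other 7 pairs had r from 0.585 to 0.678, all among Hmox1, Gclm, Slc7a11, Srxn1 and Prdx1. The libraries of a cell type share preparation and scaling, which such correlations do not separate from the genes.

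Over the same 19 macrophage libraries, the 2 genes most like each of the 10 were found by Pearson's r among the genes tested, as a description. Srxn1 was most like Sema4d (0.902) and Eif4e3 (0.897), Hmox1 like Tiam2 (0.888) and Ccdc50 (0.852), and Slc7a11 like Rnf149 (0.871) and H2-M2 (0.869). For Gclm they were H2-M2 (0.828) and Slc7a11 (0.808), for Gsr Pygl (0.857) and Plet1 (0.854), and for Prdx1 Npc2 (0.85) and Pla2g7 (0.834). Txnrd1 followed Cdh5 (0.779) and Pfkl (0.776), Gclc followed Sms (0.763) and Pan2 (0.755), and Nfe2l2 followed Irf1 (0.759) and Nt5dc2 (0.744). For Nqo1 the named gene was Bambi (0.721). Gclm was the only one of the 10 whose closest genes included another of them.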

How the data were processed

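The authors deposited 1 table of counts, per the file headers: reads for each Ensembl gene as whole numbers, in 1 column per library. Per the labels' protocols, libraries were made from 3 ng of RNA with polyA selection. The submitters' processing notes name bcl2fastq 2.19.1, FastQC, Trimmomatic 0.36, STAR 2.6.0, HTSeq 0.11.2 and mm10, with no role or order. No source used here gives the annotation or the strand setting, so reads of overlapping genes cannot be told apart. Symbols were looked up in GENCODE vM21 (42462 of 43430 IDs, 97.8%).

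Counts were tested with edgeR 4.0.16 (quasi-likelihood, TMM, filterByExpr with minimum count 10 and minimum total 15, Benjamini-Hochberg) in R 4.3.3, in 3 fits: 19 macrophage libraries (12171 genes), 20 monocyte libraries (12170) and all 39 (13587). The script was tested on simulated data. Alternatives were DESeq2 1.42.0, limma voom 3.58.1, RLE scaling, no filter, a replicate block, GC and length offsets, other sets of libraries, leaving out each library and, added after seeing the data, leaving out 2 monocyte libraries. Correlations used 100000 permutations. No libraries were duplicates: over 76 pairs within groups the chi-square per degree of freedom was 7.26 to 57.7.

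The 10 genes and all lists were chosen with earlier results of these data known. The text names the 10 genes, up to 4 called genes per direction and comparison of the wider list (largest change first, where the group that is higher averages 5 CPM or more), Keap1, Bach1 and Cul3, the 2 genes most like each of the 10, and marker genes.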

Additional observations from a re-analysis of the deposited data

Results flagged for a closer look

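In 8 of the 80 sets formed by 10 genes and 8 groups, 1 library lay far from the rest of its group by Dixon's test, where chance flags about 1 set in 20. In monocytes 3 genes stood high in single libraries: Hmox1 at 164 CPM in young saline replicate 5 (next 124), Prdx1 at 215 in old saline replicate 3 (next 175) and Nqo1 at 1.64 in old saline replicate 5 and 0.798 in young ISRIB replicate 2. Monocyte libraries that stood low were young ISRIB replicate 1 for Hmox1 at 109 CPM and old saline replicate 2 for Gclc at 28.1. In old macrophages Nqo1 reached 8.32 CPM in ISRIB replicate 4 (next 2.28), and Gsr stood at 219 in saline replicate 1, below the next library at 278.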

How the results depend on the processing

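Of 173 results (a gene in a comparison), 170 kept their side of the threshold under every alternative and every left-out library, and all 27 that were called kept their direction. Of the uncalled results 52 changed sign in at least 1 setting, and none of the values with the other sign was called. Their values are given at the end. The results that changed side of the threshold were 3. Slc7a11 was called for age in saline macrophages with no filter on low counts (0.51, adjusted p = 0.0271), so that 1 of 10 genes was called there in place of 0. Nfe2l2 was called in old saline macrophages against monocytes when only those groups were fitted (0.32, adjusted p = 0.0203). Gclc lost its call there with no filter (adjusted p = 0.0597), with GC and length offsets (0.0501) and without old saline monocyte replicate 2 (0.0887). With each library left out, the number called stayed at 9 for young saline and for the average of macrophages against monocytes, at 8 to 9 for old saline, and at 0 to 0 elsewhere; the cause of these shifts was not tested. Same-numbered libraries of different groups had a median r of 0.004 in macrophages (-0.148 to 0.165) and -0.014 in monocytes (-0.191 to 0.242). Between libraries with different numbers the medians were 0.001 and -0.001. In macrophages 7 of 19 libraries, and in monocytes 2 of 20, were closest to their own number. The number expected by chance was not computed, so whether libraries were paired cannot be told. A replicate block changed 0 of the 173 calls, leaving 9, 9 and 9 genes called between the cells and 0 elsewhere. Counts over all genes moved more. With the replicate block these counts in macrophages were 343 for ISRIB averaged (101 as reported) and 10 for ISRIB in young mice (0). They were 180 for age in saline mice (141) and 497 for age averaged (592). For age in saline macrophages they ran from 60 in the fit of all 39 libraries to 468 with no filter (141 as reported), for age in ISRIB macrophages from 50 to 405 (114), for age averaged from 340 to 975 (592) and for ISRIB averaged from 17 to 640 (101), all in the same pair of settings, and with 1 library left out they were 47 to 289, 33 to 161, 415 to 723 and 13 to 649. With no filter 220 genes were called for ISRIB in old and 224 in young macrophages, and 33 for their difference, in place of 0. DESeq2 called 28 in old and 90 in young macrophages, and with 1 library left out edgeR called 0 to 30 and 0 to 304, so the 0% printed beside these comparisons depends on the tool, the filter and single libraries. In monocytes, with no filter, 21 genes were called for ISRIB in old mice, 0 for ISRIB in young mice and 41 for age in ISRIB mice. DESeq2 called 46 genes for age in saline monocytes (3 as reported), 83 for age averaged (15) and 132 for the age difference between the cells (34). With no filter the median log2 difference of all genes between the cells was -0.12, beside -0.00 as reported. Depth limits Nqo1, whose monocyte libraries held 0 to 12 counts.

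With GC and length offsets the log2 difference became Hmox1 0.0014, Gclm -0.035 and Slc7a11 -0.041 for ISRIB in young macrophages, Gsr -0.031 for the age difference of the ISRIB effect in macrophages, Prdx1 -0.016 for ISRIB averaged in macrophages. In that setting the log2 difference became Txnrd1 -0.0037 for age in saline monocytes, Txnrd1 -0.0035 for ISRIB averaged in monocytes, Gsr 0.016 for the age difference between the cells. With limma voom the log2 difference became Nfe2l2 -0.0030 and Slc7a11 -0.0024 for age in ISRIB macrophages, Gclc -0.00065 and Prdx1 -0.0046 for ISRIB averaged in macrophages, Nqo1 -0.42 for age averaged in macrophages. In that setting the log2 difference became Txnrd1 -0.027 for age in saline monocytes, Txnrd1 -0.0074 and Srxn1 -0.030 for ISRIB averaged in monocytes, Slc7a11 -0.19 for age averaged in monocytes. In that setting the log2 difference became Nfe2l2 0.023 for the average of macrophages against monocytes, Nqo1 0.91 for the age difference between the cells. With a replicate block the log2 difference became Slc7a11 -0.062 for age in ISRIB macrophages, Nfe2l2 0.0029 and Gsr -0.0066 for the age difference of the ISRIB effect in macrophages, Hmox1 0.0087 and Nqo1 -0.097 for age averaged in macrophages. In that setting the log2 difference became Txnrd1 -0.024 for ISRIB averaged in monocytes, Slc7a11 -0.045 for age averaged in monocytes, Nfe2l2 0.012 for the average of macrophages against monocytes. With no filter the log2 difference became Prdx1 -0.0045 for ISRIB averaged in macrophages. In the fit of all 39 libraries the log2 difference became Txnrd1 -0.00055 for age in saline monocytes. Without old ISRIB monocyte replicates 4 and 5 the log2 difference became Gclc -0.051, Gsr -0.0075 and Txnrd1 -0.13 for ISRIB in old monocytes, Slc7a11 -0.22 for age in ISRIB monocytes, Nfe2l2 -0.12, Slc7a11 -0.12, Txnrd1 -0.19 and Srxn1 -0.56 for ISRIB averaged in monocytes. In that setting the log2 difference became Nfe2l2 -0.045, Slc7a11 -0.56 and Srxn1 -0.10 for age averaged in monocytes, Nfe2l2 0.097 for the average of macrophages against monocytes.

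With each library left out in turn, the log2 differences that changed sign ran as follows. ISRIB in old macrophages gave -0.11 to 0.027 for Gclc, -0.16 to 0.031 for Gclm and -0.063 to 0.099 for Prdx1. ISRIB in young macrophages gave -0.0036 to 0.090 for Gclc, -0.056 to 0.12 for Gclm, -0.015 to 0.25 for Slc7a11 and -0.12 to 0.043 for Prdx1. Age in saline macrophages gave -0.037 to 0.085 for Nfe2l2, -0.028 to 0.16 for Hmox1 and -0.030 to 0.048 for Gclc. Age in ISRIB macrophages gave -0.067 to 0.055 for Nfe2l2, -0.14 to 0.00091 for Gclc, -0.066 to 0.11 for Gclm, -0.19 to 0.21 for Slc7a11 and -0.16 to 0.10 for Srxn1. The age difference of the ISRIB effect in macrophages gave -0.089 to 0.041 for Nfe2l2, -0.053 to 0.067 for Gsr and -0.038 to 0.15 for Prdx1. ISRIB averaged in macrophages gave -0.035 to 0.033 for Gclc, -0.063 to 0.033 for Gclm and -0.044 to 0.037 for Prdx1. Age averaged in macrophages gave -0.023 to 0.044 for Nfe2l2, -0.057 to 0.035 for Hmox1, -0.46 to 0.19 for Nqo1 and -0.065 to 0.0073 for Gclc. ISRIB in old monocytes gave -0.040 to 0.095 for Gclc and -0.054 to 0.065 for Gsr. ISRIB in young monocytes gave -0.15 to 0.029 for Hmox1. Age in saline monocytes gave -0.18 to 0.090 for Hmox1 and -0.15 to 0.14 for Txnrd1. Age in ISRIB monocytes gave -0.0056 to 0.088 for Prdx1. The age difference of the ISRIB effect in monocytes gave -0.26 to 0.016 for Hmox1. ISRIB averaged in monocytes gave -0.0048 to 0.16 for Nfe2l2, -0.028 to 0.17 for Gclm, -0.083 to 0.094 for Txnrd1 and -0.079 to 0.61 for Srxn1. Age averaged in monocytes gave -0.048 to 0.033 for Gclc, -0.073 to 0.13 for Gclm and -0.20 to 0.26 for Slc7a11. Macrophages against monocytes in young saline mice gave -0.14 to 0.12 for Nfe2l2. The average of macrophages against monocytes gave -0.037 to 0.036 for Nfe2l2. The age difference between the cells gave -0.0076 to 0.27 for Hmox1, -1.54 to 3.69 for Nqo1, -0.38 to 0.0016 for Gclm, -0.17 to 0.038 for Gsr and -0.14 to 0.0084 for Prdx1. The cause of these sign changes was not tested.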
